A study of Mus musculus with 12 samples.

Results

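Ly6d- CLPs, common lymphoid progenitors of the bone marrow (BM) that lack the surface marker Ly6d, were compared between WT C57BL6/J mice of 3 months (3MO) and 1 month (1MO) of age. The comparison used the 3 libraries labelled as 3MO CLP and the 3 labelled as 1MO CLP, which are 6 of the 12 libraries of the series, and the measured values had no part in their choice. The other 6 libraries are Flk2+ MPPs, the multipotent progenitors upstream of CLPs, from the same ages. Lineage-depleted cells of long bones were sorted by flow cytometry, and polyadenylated RNA was sequenced with a strand-specific kit. The genotype of all samples is labelled WT and no treatment is named, and the labels give neither sex nor the number of mice behind a library.

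Common lymphoid progenitors descend from multipotent progenitors and give rise to B cells, T cells, natural killer cells and innate lymphoid cells. Cells that have begun B-lineage specification gain Ly6d, so the Ly6d- fraction keeps the broader lymphoid potential. The progenitor state rests on the growth factor receptors Flt3 (also called Flk2) and Kit and on the interleukin 7 receptor. V(D)J recombination, the cutting and joining of antigen receptor gene segments by the Rag proteins, was not part of the sort.

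The genes that define the sort were present at both ages. Levels are given as CPM, counts of a gene relative to its library's total, after TMM normalization for composition. Il7r, the interleukin 7 receptor chain, was at 381, 402 and 329 CPM at 1MO and at 357, 299 and 363 CPM at 3MO. Flt3 lay between 1341 and 1524 CPM at 1MO and between 1437 and 1484 CPM at 3MO. Kit, the stem cell factor receptor, lay between 238 and 377 CPM at 1MO and between 222 and 267 CPM at 3MO. The ages overlapped for these receptors and for Cd34 and Ptprc, the pan-leukocyte antigen CD45. Cd27, a receptor of the tumour necrosis factor family, was at 104, 102 and 111 CPM at 1MO and at 125, 113 and 116 CPM at 3MO, without overlap (log2 fold change 0.16, SE 0.15, adjusted p = 0.946 in edgeR). Ly6a, the stem cell antigen Sca-1, was low, at 4.41, 12.3 and 6.73 CPM at 1MO and at 1.01, 4.59 and 3.56 CPM at 3MO, with overlap (log2 fold change -1.33, SE 0.59, unadjusted p = 0.0386 and adjusted p = 0.836 in edgeR, and -0.84 on the log2 scale without 1MO replicate 2). Ly6d itself was read at 2.34 to 7.26 CPM at 1MO and at 1.03 to 5.55 CPM at 3MO.

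The total of estimated counts ranged from 10302160 to 20677785 in the 6 Ly6d- CLP libraries, and it overlapped between the ages. Transcripts of Xist, expressed from the inactive X chromosome, and of the Y-linked Ddx3y were present together in all 6 libraries, at 1692 to 4000 CPM and at 53.7 to 95.8 CPM. Replicates of one age differed by more than sampling noise in every pair. In bulk RNA, fewer cells of a type and less RNA per cell cannot be told apart. The labels number the libraries 1 to 3 within an age. The edgeR fit estimated the spread of a gene from all 12 libraries. Its p-values thus measure the spread between libraries of both cell types, not of the Ly6d- CLPs alone.

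Of the 32285 genes in the table, 13367 passed the filter on low counts and entered the quasi-likelihood test of edgeR. A gene is called here when its Benjamini-Hochberg adjusted p was under 0.05, and 10 genes were called (0.0748% of those tested), of which 4 rose (0.0299%) and 6 fell (0.0449%) from 1MO to 3MO. All 10 were among the 9100 genes termed well measured here, those with a mean of at least 10 CPM over the 6 libraries. Log2 fold changes are given as 3MO minus 1MO, so that positive values stand for higher levels at 3MO. The bulk of the transcriptome lay close to 0. Among well-measured genes 89.1% had a fitted log2 fold change within 0.5 of 0 in either direction, and 63.6% lay within 0.25. The median was -0.01, and 51% of the values were below 0. Only 75 well-measured genes were more than 1 log2 unit higher at 3MO, and 42 were more than 1 log2 unit lower. The libraries of both ages did not overlap for 42 of the former and 29 of the latter, against 10.2% of all well-measured genes. These genes were chosen by their change in the same libraries. The higher share follows from that choice and is no further support. The median standard error of a log2 fold change was 0.25 among well-measured genes, so a difference of that size in a single gene could not be told from the spread between libraries.

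**Figure D1:**
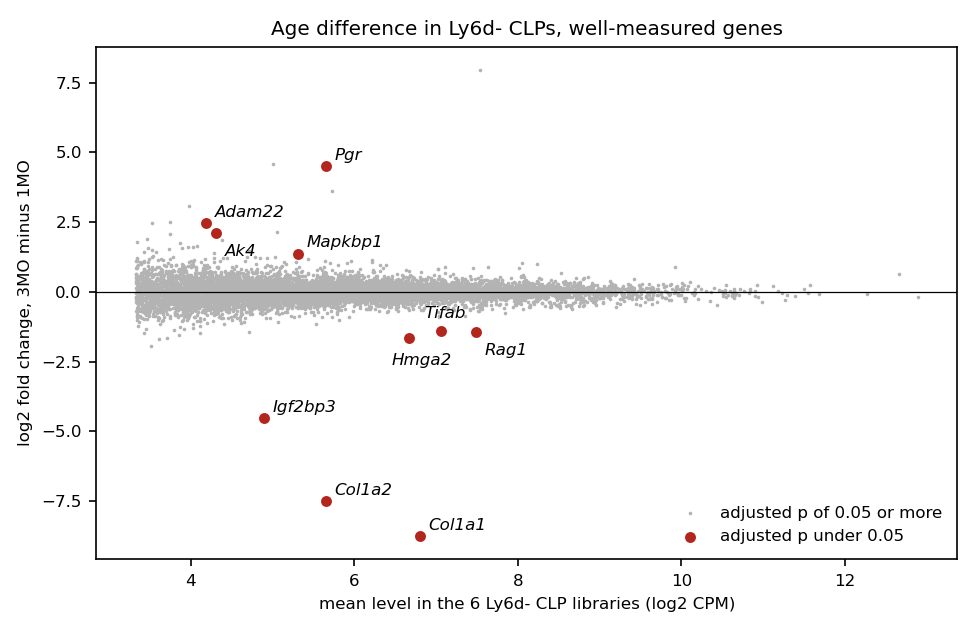
Each point is 1 of the 9100 well-measured genes, with its mean level over the 6 Ly6d- CLP libraries (log2 CPM) on the horizontal axis and its log2 fold change, 3MO minus 1MO, on the vertical axis. The 10 genes with an adjusted p under 0.05 in edgeR are marked in red, and most grey points lie within 0.5 of the zero line.

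The 4 genes that rose do not belong to one known pathway. Pgr encodes the progesterone receptor, a nuclear hormone receptor. It was at 2.52, 4.35 and 5.65 CPM at 1MO and at 59.5, 100.3 and 131 CPM at 3MO. Its log2 fold change was 4.52 (SE 0.57, adjusted p = 0.00378 from edgeR). Every 3MO library exceeded every 1MO library by more than the whole range of the 1MO values.

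Adam22, on chromosome 5 from 8072352 to 8368160 in GRCm38, encodes a membrane protein of the disintegrin and metalloprotease family that has no protease activity and is best known as a neuronal receptor for the secreted protein LGI1. It was read at 6.75, 6.32 and 3.62 CPM at 1MO and at 33.9, 20.7 and 38.2 CPM at 3MO. The log2 fold change of Adam22 was 2.48 (SE 0.34, adjusted p = 0.00649 from edgeR). The lowest 3MO library stood well above the highest 1MO library.

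Ak4, on chromosome 4 from 101419277 to 101466995, encodes an adenylate kinase of the mitochondrial matrix, an enzyme family that interconverts adenine nucleotides. Its levels were 8.28, 8.55 and 5.46 CPM at 1MO and 23.7, 41.3 and 31.7 CPM at 3MO, a log2 fold change of 2.12 (SE 0.29, adjusted p = 0.00649 from edgeR). The ages did not overlap. Of the 4 well-measured adenylate kinases Ak4 was the only one called, and the median log2 fold change over the 4 was 0.02.

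Mapkbp1, on chromosome 2 from 119972699 to 120027408, encodes a scaffold protein that binds the kinase JNK. It was at 20.3, 17.6 and 28.4 CPM at 1MO and at 53.6, 50.7 and 68.1 CPM at 3MO, a log2 fold change of 1.38 (SE 0.24, adjusted p = 0.0428 from edgeR). Its libraries were separated by age, but of the 6 fits that left out a Ly6d- CLP library the call was kept only in that without 1MO replicate 3. Without one of the others the adjusted p of Mapkbp1 in edgeR was 0.0833 to 0.27 and the log2 fold change 1.23 to 1.46, and it was 0.0591 to 0.0851 without any single Flk2+ MPP library other than 3MO replicate 1. Pgr, Adam22 and Ak4 were called in all 6 such fits.

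The sequences before the transcription starts are shown for these 4 genes because they rose together, and that of Rag1, described next among the genes that fell, is shown beside them. Each is the 250 bases upstream of the RefSeq start in GRCm38 (GRCm38.p6), written 5′ to 3′ on the strand of the gene, and the capitals mark CG dinucleotides. All 8 of the called genes outside the collagens that were looked up were found in RefSeq. Pgr lies at chr9:8899583-8899832 (plus strand), Adam22 at chr5:8368161-8368410 (minus strand), Ak4 at chr4:101419039-101419288 (plus strand, the first of 4 RefSeq starts), Mapkbp1 at chr2:119972449-119972698 (plus strand) and Rag1 at chr2:101649533-101649782 (minus strand).
Pgr: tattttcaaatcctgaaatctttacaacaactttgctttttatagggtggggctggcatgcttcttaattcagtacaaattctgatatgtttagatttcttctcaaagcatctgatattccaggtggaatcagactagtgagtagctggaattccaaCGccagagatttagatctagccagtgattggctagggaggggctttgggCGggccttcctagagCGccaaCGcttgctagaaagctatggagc
Adam22: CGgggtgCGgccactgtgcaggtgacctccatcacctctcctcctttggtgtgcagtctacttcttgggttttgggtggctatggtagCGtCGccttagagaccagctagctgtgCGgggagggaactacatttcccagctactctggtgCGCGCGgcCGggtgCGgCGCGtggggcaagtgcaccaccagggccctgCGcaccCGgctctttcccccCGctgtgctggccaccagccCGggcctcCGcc
Ak4: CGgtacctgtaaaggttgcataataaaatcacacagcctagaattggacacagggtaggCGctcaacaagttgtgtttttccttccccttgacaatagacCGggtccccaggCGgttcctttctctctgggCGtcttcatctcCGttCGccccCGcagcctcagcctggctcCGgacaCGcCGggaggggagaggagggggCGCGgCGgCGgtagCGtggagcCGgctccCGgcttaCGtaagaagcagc
Mapkbp1: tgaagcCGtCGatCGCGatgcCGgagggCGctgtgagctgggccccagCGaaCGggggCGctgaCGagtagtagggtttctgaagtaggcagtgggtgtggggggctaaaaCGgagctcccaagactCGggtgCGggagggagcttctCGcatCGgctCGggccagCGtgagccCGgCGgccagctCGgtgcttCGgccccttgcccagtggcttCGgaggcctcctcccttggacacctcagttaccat
Rag1: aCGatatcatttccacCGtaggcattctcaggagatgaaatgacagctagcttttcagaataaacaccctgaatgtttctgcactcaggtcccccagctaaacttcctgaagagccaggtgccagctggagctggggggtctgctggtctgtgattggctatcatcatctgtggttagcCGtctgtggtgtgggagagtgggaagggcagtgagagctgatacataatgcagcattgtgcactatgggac

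The Adam22, Ak4 and Mapkbp1 sequences held 17, 19 and 22 CG dinucleotides, and those of Pgr and Rag1 held 4 and 3. The median over 27025 RefSeq promoters of this length was 6 and over 7345 promoters of well-measured genes 17. CG occurred in 91.7% of all these promoters. The letters TATAAA, searched on both strands, occurred in 13% of all promoters, and among the called genes in that of Pgr. Genes that rose thus had both CG-rich and CG-poor starts.

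The 6 genes that fell include a recombinase, an inhibitor of inflammatory signalling, genes of the fetal progenitor program and collagens. Rag1, on chromosome 2 from 101638282 to 101649501, encodes the catalytic subunit of the V(D)J recombinase. It was at 266, 197 and 326 CPM at 1MO and at 79.8, 83.9 and 126 CPM at 3MO, a log2 fold change of -1.44 (SE 0.25, adjusted p = 0.0428 from edgeR). All 3MO libraries were below all 1MO libraries. The adjusted p of Rag1 in edgeR was 0.132, 0.238, 0.203 and 0.306 without 1MO replicate 1, 1MO replicate 3, 3MO replicate 1 and 3MO replicate 2, and 0.0504 to 0.0805 without any single Flk2+ MPP library other than 3MO replicate 1. Rag1 was the only one called among the 9 well-measured genes listed for V(D)J recombination and end joining, whose median was -0.17. Dntt, the terminal transferase that adds bases at the joints, was at 1988, 2917 and 2922 CPM at 1MO and at 2206, 2522 and 2446 CPM at 3MO, with full overlap of the ages. Hmgb2, a chromatin protein that assists the Rag proteins in cutting, had a log2 fold change of -0.35 with overlapping libraries (-0.20 without 1MO replicate 3).

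Tifab, on chromosome 13 from 56173704 to 56178885, encodes a relative of TIFA that restrains TRAF6 and NF-kappaB signalling. It fell from 186, 178 and 217 CPM at 1MO to 55.3, 103 and 62.7 CPM at 3MO, a log2 fold change of -1.39 (SE 0.22, adjusted p = 0.0187 from edgeR). The highest 3MO library, replicate 2, remained below every 1MO library. The adjusted p of Tifab in edgeR was 0.0576, 0.101, 0.0833 and 0.117 without 1MO replicate 1, 1MO replicate 3, 3MO replicate 1 and 3MO replicate 3. Of the 29 well-measured genes of NF-kappaB and Toll-like receptor signalling Tifab was the only one called, and the list's median was -0.01. Traf6, the ubiquitin ligase on which Tifab acts, was at 116, 108 and 97.9 CPM at 1MO and at 111, 95.1 and 108 CPM at 3MO. Nfkbiz, an atypical inhibitor of NF-kappaB, and Chuk, the kinase IKK alpha, had log2 fold changes of 1.01 and 0.62, with overlapping libraries and an adjusted p in edgeR of 0.788 and 0.826.

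Igf2bp3 and Hmga2, an RNA-binding protein and a DNA-binding architectural protein, are both highly expressed in fetal blood progenitors and are targets of the microRNA let-7. Igf2bp3 was at 67.7, 38.9 and 65.1 CPM at 1MO and at 1.21, 4.2 and 1.82 CPM at 3MO. Hmga2 was at 196, 108 and 157 CPM at 1MO and at 58.0, 41.7 and 47.0 CPM at 3MO. Neither gene had a 3MO library within the 1MO range. The adjusted p of Hmga2 in edgeR was 0.0845 and 0.0591 without 3MO replicate 2 and 3MO replicate 3, while Igf2bp3 was called in all fits with 1 library left out. They were the only called genes among the 5 well-measured genes of the fetal-type list. The median of the list was -0.43, and 4 of the 5 were below 0. An unadjusted p under 0.05 in edgeR with lower values was found in 3 of them (2.18% of well-measured genes). Lower 3MO libraries without overlap were found in 3 (5.68%). The third member named, the transcription factor gene Mycn, lay on the other side of 0 with a log2 fold change of 0.55. Mycn was read at 23.4, 31.5 and 26.7 CPM at 1MO and at 40.4, 40.9 and 38.5 CPM at 3MO, with no overlap and an adjusted p of 0.777 in edgeR.

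Col1a1 and Col1a2, the chains of type I collagen, fell from 134 to 400.0 CPM and from 65.8 to 168 CPM at 1MO to at most 1.92 and 1.66 CPM at 3MO. At 3MO 2 of the 3 libraries were at 0 for each gene. The adjusted p of Col1a1 in edgeR was 0.11, 0.0649, 0.223 and 0.151 without 1MO replicate 1 and without 3MO replicates 1, 2 and 3, and 0.057 without replicate 1 of the 1MO Flk2+ MPPs. The summed level of the 18 bone stroma markers, which include both collagens, was 1249, 713 and 762 CPM at 1MO and 601, 625 and 492 CPM at 3MO. Most of the 3MO sum was Runx2, a transcription factor gene at 488 to 630 CPM at 1MO and 478 to 613 CPM at 3MO. Without Runx2, left out after its values were seen, the sum was 620, 226 and 245 CPM at 1MO and 16.6, 12.8 and 14.5 CPM at 3MO. Without the collagens as well it was 51.5, 26.3 and 41.7 CPM against 14.6, 12.8 and 12.8 CPM, and 11 of these 15 markers had a lower mean at 3MO. Sparc, a matrix protein of bone, was at 22.3, 9.48 and 9.90 CPM at 1MO and at 0, 7.02 and 2.45 CPM at 3MO. Cxcl12, the chemokine by which stroma holds progenitors, was at 6.12, 3.16 and 4.63 CPM at 1MO and at 1.31, 0 and 1.19 CPM at 3MO. Col5a2, Dcn, Lum, Ibsp, Bglap and Bglap2 had counts at 1MO and none at 3MO. All of them but Col5a2 were at or below 2.96 CPM and did not pass the filter on low counts. Postn, Lepr and Sp7 had higher means at 3MO (4.65, 1.74 and 0.185 CPM) than at 1MO (3.35, 0.186 and 0.180 CPM), and Mgp was at 0 in all 6 libraries. Most of the stroma markers thus moved with the collagens, and their part in the collagen result was not tested. In limma-voom the adjusted p was 0.736 for Col1a1 and 0.508 for Col1a2.

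**Figure D2:**
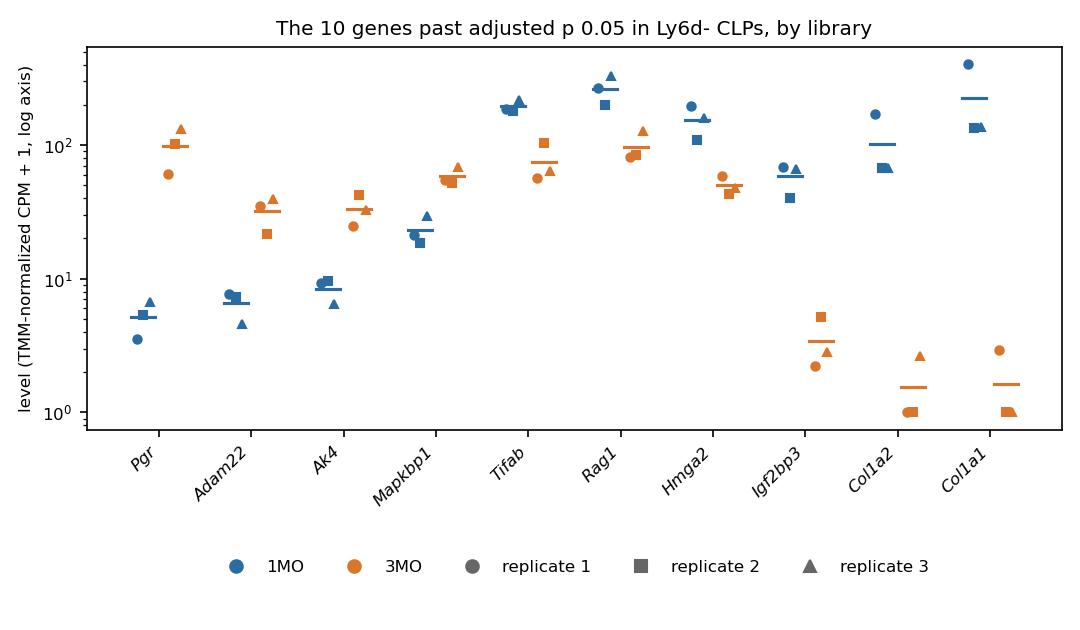
Levels of the 10 called genes in each Ly6d- CLP library (TMM-normalized CPM plus 1, log axis), with 1MO in blue, 3MO in orange, a symbol for each replicate number and a bar at each mean. For every gene the 3MO libraries lie entirely on one side of the 1MO libraries.

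A further tier of genes did not pass the adjustment in edgeR but had fully separated ages and the smallest p among well-measured genes, and is described by its values. DESeq2, the tool of the study, called 57 genes in place of 10 (0.426% of those tested), which included all 10, and among well-measured genes it called 31 (0.341%), of which 21 were not called by edgeR. Ern1 had the smallest p of the genes that were higher at 3MO. It encodes IRE1, the endoplasmic reticulum (ER) sensor that splices the message of Xbp1 when unfolded proteins accumulate. Ern1 was at 237, 200.2 and 166 CPM at 1MO and at 333, 379.6 and 495 CPM at 3MO, a log2 fold change of 1.00 (SE 0.19, adjusted p = 0.084 in edgeR and 0.000315 in DESeq2). Among the 23 well-measured genes of the ER stress response Ern1 was the only one with an unadjusted p under 0.05. The median of that list was 0.02, with Atf4, its central transcription factor, at 0.20.

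H2-Q6 and H2-Q7 encode nonclassical class I molecules of the Qa-2 family and are near-identical, so reads may have been divided between them and their single values are uncertain. H2-Q6 was at 47.9, 62.4 and 28.2 CPM at 1MO and at 111, 108 and 90.0 CPM at 3MO, a log2 fold change of 1.15 (adjusted p = 0.133 in edgeR and 0.00174 in DESeq2). H2-Q7 was at 93.0, 114 and 73.5 CPM at 1MO and at 200.0, 135 and 165 CPM at 3MO, a log2 fold change of 0.83 (adjusted p = 0.3 in edgeR). For both genes every 3MO library was above every 1MO library. The 18 well-measured genes of MHC class I and II presentation had a median of 0.05, with 10 above 0 and 8 below, and the class II chaperone gene Cd74 was at 7.38, 8.40 and 11.7 CPM at 1MO against 17.8, 20.5 and 9.25 CPM at 3MO, with overlap.

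The other genes of this tier that were higher at 3MO have varied roles. Fbxo7, a substrate adaptor of a ubiquitin ligase, was at 24.6, 32.9 and 37.4 CPM at 1MO and at 55.9, 65.9 and 82.6 CPM at 3MO (log2 fold change 1.10). Ide, the insulin-degrading enzyme, was at 203, 181 and 168 CPM at 1MO and at 309, 304 and 383 CPM at 3MO (0.85 on the log2 scale). Igf2r, the receptor that delivers mannose 6-phosphate proteins and insulin-like growth factor 2 to lysosomes, was at 122, 99.6 and 67.2 CPM at 1MO and at 167, 198 and 173 CPM at 3MO (0.90). Each had 3 separated libraries per age and an adjusted p between 0.145 and 0.216 in edgeR. Pkd2, a cation channel of the polycystin family, had a log2 fold change of 1.21. Mdga1, a GPI-anchored adhesion protein, and Hdgfl3, a chromatin reader related to hepatoma-derived growth factor, had log2 fold changes of 1.87 and 1.09. Gbp4, an interferon-inducible GTPase, was at 14.6, 11.8 and 10.3 CPM at 1MO and at 33.9, 37.2 and 91.1 CPM at 3MO, where replicate 3 stood above the other libraries. Ttn, the giant sarcomere protein, had a log2 fold change of 7.95 that came from 1 library, since 3MO replicate 2 was at 1099 CPM and all others were at or below 6.01 CPM, and without that library it was 2.11.

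Of the corresponding genes that were lower at 3MO, Sema3d, a secreted semaphorin, was at 71.5, 75.4 and 76.9 CPM at 1MO and at 32.4, 34.7 and 45 CPM at 3MO, a log2 fold change of -0.998 (SE 0.19, adjusted p = 0.0922 in edgeR and 0.000894 in DESeq2). Robo4, a roundabout receptor found on blood stem cells and endothelium, was at 30.8, 18.3 and 15.5 CPM at 1MO and at 6.66, 5.97 and 9.33 CPM at 3MO, a log2 fold change of -1.55 (adjusted p = 0.122 in edgeR). For both guidance genes the ages were apart. The summed level of the 12 endothelial markers was 483 to 535 CPM at 1MO and 428 to 475 CPM at 3MO, with Cldn5 at 0 and Cdh5 at or below 1.78 CPM in all 6 libraries, and its part in the Robo4 value was not tested.

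Entpd1, the ectonucleotidase CD39, was at 35.7, 31.5 and 33.2 CPM at 1MO and at 11.4, 17.4 and 17.4 CPM at 3MO (log2 fold change -1.12). Atraid, a retinoic acid-induced gene, had a log2 fold change of -1.32. Marcks, a protein kinase C substrate at the membrane, and the nuclear receptor gene Hnf4a had log2 fold changes of -0.89 and -0.88. These 4 genes were called by DESeq2 (adjusted p between 0.0111 and 0.049) and not by edgeR (adjusted p between 0.215 and 0.344). Ifi206, Cd52, Ptk7 and 9930111J21Rik2 completed the 10 and were called by neither tool. Cd52, a small surface glycoprotein of lymphocytes, was at 20.5, 26.6 and 41.1 CPM at 1MO and at 15.3, 12.1 and 11.9 CPM at 3MO.

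**Figure D3:**
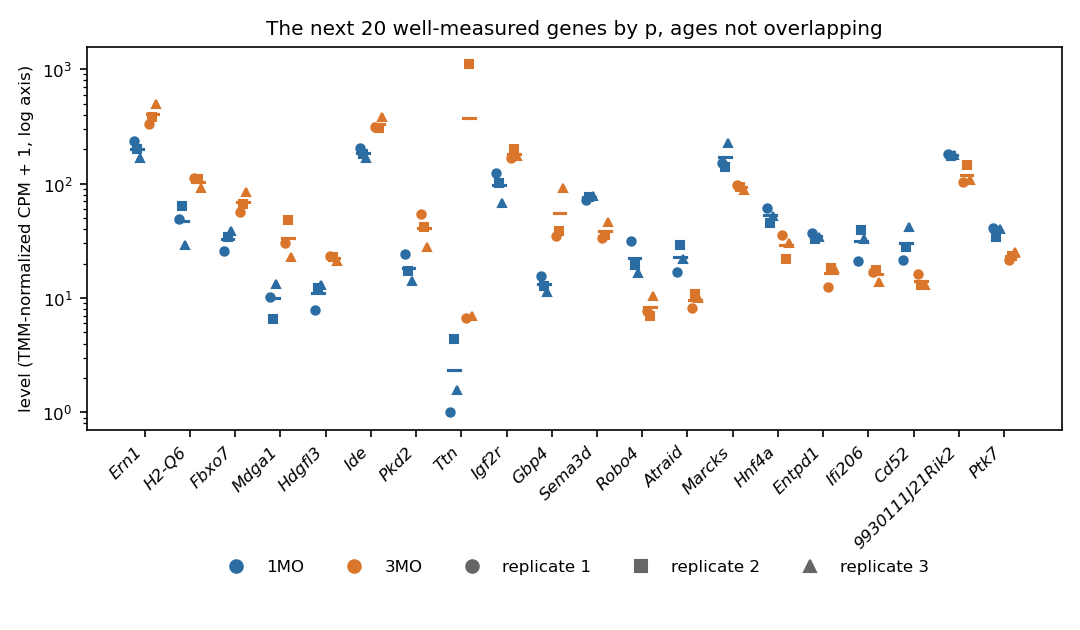
Levels in each library (TMM-normalized CPM plus 1, log axis) of the 10 higher and 10 lower well-measured genes that follow the called genes by p and whose ages do not overlap, with 1MO in blue, 3MO in orange and a bar at each mean. Ttn shows 1 orange point at 1099 CPM far above its other points.

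Function lists were read by the number of well-measured members, their median, and how many had an unadjusted p under 0.05 or separated ages, beside the same for all well-measured genes, of which 4.99% had such a p (2.81% higher and 2.18% lower at 3MO) and 10.2% separated ages (4.49% higher and 5.68% lower). The 4.99% is near what a threshold of 0.05 gives where nothing changes. Separated ages are likewise frequent with 3 libraries per age. Neither measure alone shows an age change in a single gene. The medians of most lists depended on single libraries. Leaving out 1 Ly6d- CLP library changed the median by over 1.5 times or turned its sign in 47 of the 51 function lists, and the sign in 16. Among the function lists with at least 30 well-measured members, the cytosolic ribosomal proteins and the nuclear oxidative phosphorylation subunits had the lowest medians. For the 83 well-measured cytosolic ribosomal proteins the median log2 fold change was -0.47, and 82 of the 83 were below 0. No ribosomal protein gene had an unadjusted p under 0.05 or separated ages. Rpl3, a protein of the large subunit, was at 837, 1268 and 1441 CPM at 1MO and at 866, 1060.3 and 889 CPM at 3MO. Rps6, the small subunit protein phosphorylated downstream of mTOR, was at 542, 999.8 and 1196 CPM at 1MO and at 584, 780.1 and 683 CPM at 3MO. In both genes 1MO replicates 2 and 3 were high and 1MO replicate 1 was the lowest library of all. The summed level of the list followed the same order, with 23710, 39770 and 49060 CPM at 1MO and 25660, 31860 and 27780 CPM at 3MO.

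The 65 nuclear-encoded subunits of oxidative phosphorylation had a median of -0.25, with 57 below 0. Cox4i1, a subunit of cytochrome c oxidase, was at 76.6, 119.9 and 153 CPM at 1MO and at 67.9, 82.7 and 88.6 CPM at 3MO. Ndufv3, a complex I subunit, was the single member with an unadjusted p under 0.05 and with separated ages, at 25.5, 27.4 and 36.7 CPM at 1MO and at 15.5, 16.3 and 19.4 CPM at 3MO. The summed level was 3105, 4196 and 4930 CPM at 1MO and 3333, 3819 and 3503 CPM at 3MO, so 1MO replicate 1 again lay below the 3MO libraries. The 13 subunits encoded in mitochondrial DNA had a median of -0.07. The citric acid cycle list had a median of -0.12 over 20 genes. It includes Mdh1, the cytosolic malate dehydrogenase, which is not the mitochondrial enzyme of the cycle. Mdh1 was at 113, 137 and 146 CPM at 1MO and at 75.6, 97.7 and 96.6 CPM at 3MO. Suclg1, a succinate-CoA ligase subunit, was at 62.8, 63.9 and 62.9 CPM at 1MO and at 46.5, 45.5 and 49.2 CPM at 3MO. Both had separated ages and a log2 fold change of -0.55 and -0.43.

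The mitochondrial ribosome, with 60 well-measured proteins, had a median of -0.18, and 6 members had lower 3MO libraries without overlap, beside 5.68% of all well-measured genes. Mrpl40 was at 18.4, 18.9 and 15.6 CPM at 1MO and at 7.57, 12.2 and 7.51 CPM at 3MO. The 56 translation factors had a median of -0.13. Eif5b, the GTPase that joins the ribosomal subunits, had the smallest unadjusted p of them (0.00952 in edgeR, adjusted p = 0.685). Its levels were 216, 204 and 261 CPM at 1MO and 128, 149 and 172 CPM at 3MO, without overlap. Eef2, the translocation factor of elongation, overlapped between the ages. The 37 proteasome subunits had a median of -0.15, with 32 below 0 and 3 with separated ages, of which Psmd12 was at 56.7, 55.9 and 56.1 CPM at 1MO and at 36.6, 40.4 and 48.2 CPM at 3MO. The 63 splicing genes had a median of -0.10, with 8 lower and 1 higher without overlap. Sf3b1, the branch point factor, was among the 8, at 912, 877 and 983 CPM at 1MO and at 789, 766 and 867 CPM at 3MO. Without 1MO replicate 1 the medians of the mitochondrial ribosome, the translation factors and the proteasome were -0.29, -0.22 and -0.32, and without 1MO replicate 3 they were -0.09, -0.07 and -0.08. The aminoacyl-tRNA synthetases and the ribosome biogenesis factors had medians of -0.02 and -0.07.

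Transcript length moved with these lists. The median transcript length was 696 nucleotides for the cytosolic ribosomal proteins and 710 for the oxidative phosphorylation subunits, against 2280 for well-measured genes. Across bins of length the median log2 fold change went from -0.11 for the 602 genes under 700 nucleotides to 0.07 for the 929 genes over 5000 nucleotides. In the shortest bin the median deviation of a library from the mean of the 6 was -0.09 in replicate 1 of each age, and 0.10 and 0.16 in 1MO replicates 2 and 3. With the trend on transcript length removed from each library, the medians were -0.32 for ribosomal proteins and -0.16 for oxidative phosphorylation. Without the replicate 1 libraries of both ages, they were -0.67 and -0.42. Single 1MO libraries moved them as far. Without 1MO replicate 1 the medians were -0.73 and -0.43, and without 1MO replicate 3 they were -0.19 and -0.08. The part of transcript length in the result was not tested further.

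**Figure D4:**
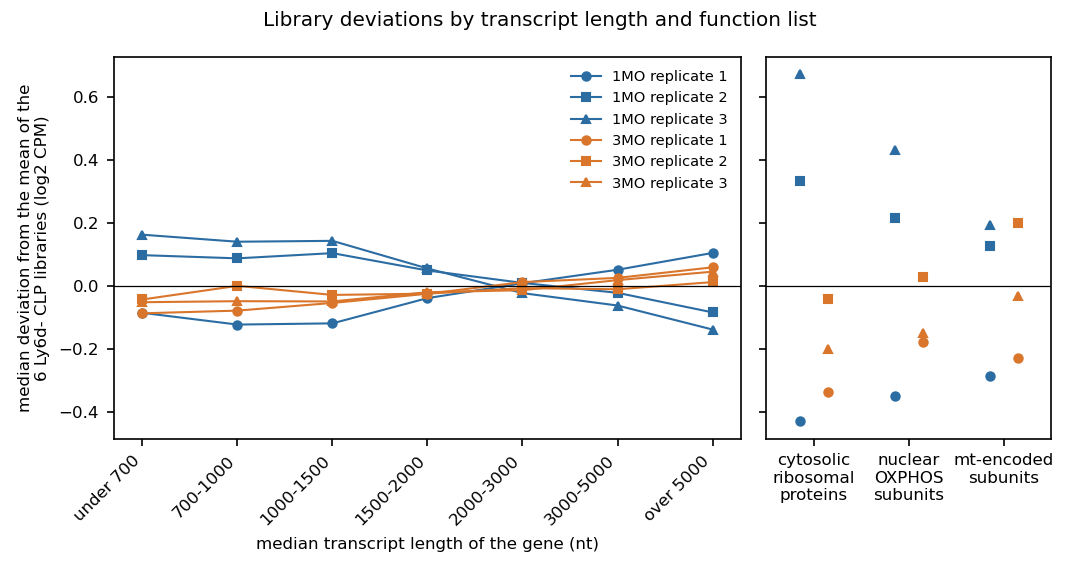
The left panel shows for each Ly6d- CLP library the median deviation of genes from the mean of the 6 libraries (log2 CPM) in bins of transcript length in nucleotides, and the right panel the same deviation for the cytosolic ribosomal proteins, the nuclear oxidative phosphorylation subunits and the mitochondrially encoded subunits. 1MO replicates 2 and 3 lie highest for short transcripts and ribosomal proteins, while 1MO replicate 1 lies lowest for the ribosomal proteins, below all 3MO libraries.

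Genes of the cell cycle were near 0 at this age step. The 46 well-measured genes of DNA replication and the 46 of mitosis had medians of -0.08 and -0.07, and no member of either list had an unadjusted p under 0.05. Mki67, the proliferation antigen Ki-67, was at 2399, 2193 and 2318 CPM at 1MO and at 2179, 2547 and 2268 CPM at 3MO, with full overlap. Pcna, the polymerase clamp, was at 202, 292 and 334 CPM at 1MO and at 215, 265 and 238 CPM at 3MO. In mitosis 4 genes had lower 3MO libraries without overlap, among them the kinase gene Plk1, at 70.7, 73.5 and 79.5 CPM at 1MO and at 54.2, 57.5 and 57.2 CPM at 3MO. Cdt1, which loads the replicative helicase, was at 147, 103 and 111 CPM at 1MO and at 82.8, 90.6 and 91.9 CPM at 3MO, a log2 fold change of -0.44 (-0.28 without 1MO replicate 1) and an adjusted p of 0.891 in edgeR.

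Nucleotide synthesis, with 30 genes and a median of -0.05, held values in both directions. Nme1, a nucleoside diphosphate kinase, was at 35.8, 42.8 and 44.7 CPM at 1MO and at 17.8, 22 and 24.2 CPM at 3MO, a log2 fold change of -0.95. Mthfd2, the mitochondrial folate enzyme, was at 30.6, 22.3 and 22.5 CPM at 1MO and at 12, 16.1 and 16.8 CPM at 3MO. Shmt1, its cytosolic folate-cycle partner, and Cad, the enzyme that starts pyrimidine synthesis, had log2 fold changes of 0.57 and 0.42 with overlapping libraries, and that of Cad was 0.24 without 3MO replicate 1. The adjusted p of each was at least 0.709 in edgeR.

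In DNA repair, with a median of 0.03 over 42 genes, the mismatch repair gene Pms2 was at 69.0, 40.3 and 41.9 CPM at 1MO and at 104, 59.2 and 81.7 CPM at 3MO, where 1MO replicate 1 overlapped the 3MO range. Fancl, a ubiquitin ligase of the Fanconi pathway, was at 40.3, 14.9 and 15.7 CPM at 1MO and at 10.2, 11.7 and 14.2 CPM at 3MO, and its log2 fold change of -0.97 became -0.35 without 1MO replicate 1. The adjusted p was 0.792 for Pms2 and 0.807 for Fancl in edgeR.

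The 38 well-measured enzymes and subunits of DNA and histone methylation had a median of 0.10, and 26 of the 38 were above 0. Rnf2, the ubiquitin ligase of Polycomb complex 1, went the other way. It was at 98.9, 104 and 113 CPM at 1MO and at 58.3, 83.8 and 53.7 CPM at 3MO, a log2 fold change of -0.69 (unadjusted p = 0.00662 and adjusted p = 0.642 in edgeR). Its ages were apart. Ezh2, the methyltransferase of Polycomb complex 2, was at 291, 214 and 204 CPM at 1MO and at 296, 222 and 316 CPM at 3MO. Kdm5c, an H3K4 demethylase, was at 260.1, 241 and 237 CPM at 1MO and at 296, 331 and 296 CPM at 3MO, without overlap, and Dot1l, the H3K79 methyltransferase, had a log2 fold change of 0.56 with overlap. Among remodelling genes, with a median of 0.05, the ATPase gene Smarca2 was at 215, 193 and 196 CPM at 1MO and at 247, 354 and 243 CPM at 3MO. Chd7, of the same list, was at 52.6, 19.5 and 42.7 CPM at 1MO and at 20.6, 12.3 and 9.96 CPM at 3MO, with overlap. The adjusted p of Smarca2 and Chd7 in edgeR was 0.709 and 0.785. The 245 well-measured zinc finger genes named Zfp were centred at 0.02, with 127 above 0 and 118 below.

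Lineage genes were examined for each branch that CLPs can enter. The 12 well-measured B-lineage genes had a median of -0.17, and 9 of the 12 were below 0. Ebf1, the factor that specifies B cells, was at 76.3, 53 and 61.9 CPM at 1MO and at 38.2, 20.8 and 26.3 CPM at 3MO, a log2 fold change of -1.17 (SE 0.38, adjusted p = 0.67 in edgeR). Foxo1, which acts upstream of the recombinase and of Il7r, was at 58.7, 48.9 and 68.0 CPM at 1MO and at 36.2, 32.9 and 37.7 CPM at 3MO, a log2 fold change of -0.72 (SE 0.22, adjusted p = 0.598 in edgeR). Both factors had separated ages. Pax5, the factor of B-lineage commitment, varied within an age, at 17.5, 7.56 and 28.9 CPM at 1MO and at 12.5, 0.498 and 1.34 CPM at 3MO. The summed level of the 12 markers of mature B and plasma cells was 876 to 1053 CPM at 1MO and 855 to 974 CPM at 3MO, with Ms4a1 (CD20) at 0 in all 6 libraries. Most of that sum was Ighm, at 740 to 850 CPM at 1MO and 675 to 800 CPM at 3MO. Cd79a, a B cell receptor subunit, was at 1.83 to 5.65 CPM at 1MO and at most at 0.996 CPM at 3MO, and its part in the B-lineage values was not tested.

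The 9 well-measured T-lineage genes had a median of -0.03. Tcf7, the T-lineage factor TCF1, was at 30.6, 24.1 and 20.8 CPM at 1MO and at 14.1, 13.6 and 16.5 CPM at 3MO, without overlap but with a standard error of 0.58 (log2 fold change -0.77, unadjusted p = 0.203 in edgeR). Lck, the kinase of the T cell receptor, was at 81.0, 96.8 and 105 CPM at 1MO and at 76.8, 76.8 and 62.7 CPM at 3MO. The defining T cell marker Cd3e was at or below 0.27 CPM in all 6 libraries. Of the 5 well-measured natural killer and innate lymphoid genes, Il18r1, the interleukin 18 receptor, was the one above 0. It was at 31.9, 36.6 and 35.3 CPM at 1MO and at 82.3, 69.1 and 41.8 CPM at 3MO, a log2 fold change of 0.89 (unadjusted p = 0.00413 and adjusted p = 0.571 in edgeR). Tox and Nfil3, transcription factors of innate lymphoid development, had log2 fold changes of -0.58 and -0.42, both with lower 3MO libraries and no overlap. Without 3MO replicate 3, the lowest library for both, they were -0.38 and -0.26.

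Myeloid genes had a median of 0.03 over 22 members, with 3 higher and 0 lower at an unadjusted p under 0.05 in edgeR and 0 called by edgeR or DESeq2. Cebpa, the factor that specifies granulocyte and monocyte progenitors, was at 21.5, 27.6 and 20.6 CPM at 1MO and at 34.0, 42.3 and 36.1 CPM at 3MO, a log2 fold change of 0.69 (unadjusted p = 0.0102 in edgeR). Every 3MO library was above every 1MO library. Ngp and Ltf, proteins of neutrophil granules, had log2 fold changes of 1.62 and 1.54, and for both the 3MO values of replicates 2 and 3 were the high ones, with Ngp at 10.3, 40.5 and 23.2 CPM. Without 3MO replicate 2 the log2 fold change of Ngp was 1.06. Mpo, myeloperoxidase of early granulocyte progenitors, was at 1140.4, 792 and 831 CPM at 1MO and at 857, 903 and 684 CPM at 3MO. The summed level of 14 markers of neutrophils and monocytes, which include Ngp and Ltf, was 360, 326 and 328 CPM at 1MO and 286, 555 and 396 CPM at 3MO, with Cd14 at 0, and their part in the granule gene values was not tested. The 11 well-measured dendritic cell genes had a median of -0.29, with 8 below 0, and the median was -0.16 without 1MO replicate 1 and -0.15 without the replicate 1 libraries of both ages. The 6 well-measured markers of plasmacytoid dendritic cells, all of them also among these 11 genes, had a median of -0.36, with 5 below 0 and Klk1, another of the 8 listed, at 0 in all 6 libraries. Their summed level was 186, 207 and 210 CPM at 1MO and 147, 191 and 150 CPM at 3MO, and their part in the dendritic cell values was not tested.

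Signalling lists had few members past an unadjusted p of 0.05. In the hypoxia-induced list, with a median of 0.13 over 18 genes, 4 members had an unadjusted p under 0.05 and separated ages, all higher at 3MO (2.81% and 4.49% of well-measured genes were higher by these measures), and 1 of them, Ak4, was called. The median was 0.01 without 1MO replicate 1, 0.04 without 3MO replicate 2, 0.20 without 3MO replicate 3 and 0.06 over all tested members. Ndrg1, a stress-induced gene, was at 56.5, 20.8 and 24.6 CPM at 1MO and at 63.7, 81.9 and 63.8 CPM at 3MO. Vegfa, the vascular growth factor, was at 21.7, 27.5 and 25.6 CPM at 1MO and at 34.8, 46.1 and 77.8 CPM at 3MO. Ddit4, an inhibitor of mTOR complex 1, was at 17.1, 29.9 and 23.9 CPM at 1MO and at 33.3, 38.2 and 41.8 CPM at 3MO. For these 3 genes the lowest 3MO library was above the highest 1MO library, and the adjusted p in edgeR was between 0.694 and 0.843. The message of Hif1a, whose protein is controlled by its stability, was at 122, 121 and 109.6 CPM at 1MO and at 119, 112 and 97.8 CPM at 3MO.

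The mTOR and amino acid sensing list had a median of 0.06 over 29 genes, with 3 higher and 0 lower at an unadjusted p under 0.05 in edgeR, and 0 called by edgeR or DESeq2. Beside Ddit4 these were Tsc1, a brake on mTOR complex 1, at 145, 87.1 and 96.8 CPM at 1MO against 144, 171 and 141 CPM at 3MO, and the glutamine transporter gene Slc1a5. In JAK-STAT signalling, with a median of 0.13 and 16 of 22 genes above 0, Stat3 was at 178, 152 and 127 CPM at 1MO and at 245, 225 and 170.5 CPM at 3MO. Socs2, a feedback inhibitor of cytokine receptors, was at 20.6, 19.1 and 19.6 CPM at 1MO and at 28.6, 35.1 and 32.7 CPM at 3MO, without overlap. The spread of Socs2 within an age was small beside the step between the ages, although its adjusted p in edgeR was 0.838.

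Interferon-stimulated genes had a median of -0.21 over 31 members, and 24 were below 0. With separated ages, 1 was higher and 3 lower at 3MO (4.49% and 5.68% of well-measured genes). Gbp4, the interferon-inducible gene described above as higher at 3MO, is not on this list. Cmpk2, a mitochondrial nucleotide kinase of the interferon response, was at 24.0, 27.7 and 31.1 CPM at 1MO and at 15, 12.1 and 16.4 CPM at 3MO. Oas1a, an oligoadenylate synthetase, was at 19.5, 21.5 and 19.9 CPM at 1MO and at 13.5, 15.3 and 13.2 CPM at 3MO. Both were lower at 3MO without overlap, whereas Irf7, the factor that amplifies the response, overlapped at 15.9, 33.2 and 34.6 CPM against 9.18, 26.4 and 18.2 CPM. Isg15, a ubiquitin-like modifier, was at or below 4.94 CPM in all 6 libraries and too low to compare.

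The 6 well-measured GIMAP genes, GTPases of lymphocyte survival that lie in one cluster, were all below 0 with a median of -0.47. Gimap6 was at 223, 228 and 229 CPM at 1MO and at 165, 146 and 184 CPM at 3MO, a log2 fold change of -0.46 (SE 0.17, unadjusted p = 0.0193 and adjusted p = 0.785 in edgeR). It was the single member with separated ages, while Gimap8, Gimap5 and Gimap1 overlapped. With 1 Ly6d- CLP library left out, their log2 fold changes ranged from -0.91 to -0.29, from -0.94 to -0.40 and from -0.33 to -0.05. In the integrin and homing receptor list Itgb2, the beta 2 integrin CD18, was at 68.6, 66.2 and 71.1 CPM at 1MO and at 44.7, 30.3 and 50.2 CPM at 3MO, and Itga6, the laminin receptor chain, at 41.9, 45.9 and 45.6 CPM at 1MO and at 47.5, 65.2 and 62.9 CPM at 3MO. Both were separated by age in opposite directions.

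Survival genes were described by the BCL2 family and caspases, with a median of -0.10 over 23 genes. Without overlap, 2 were higher and 3 lower at 3MO (4.49% and 5.68% of well-measured genes), and only the 2 higher ones are named. Bcl2, the antiapoptotic founder of the family, was at 578, 530.1 and 476 CPM at 1MO and at 597, 636 and 609 CPM at 3MO, without overlap. Bid, a proapoptotic member, was at 42.9, 47.4 and 38.0 CPM at 1MO and at 65.4, 65.9 and 54.3 CPM at 3MO, also without overlap. Mcl1, which lymphoid progenitors need to survive, overlapped between the ages. Among nuclear receptors Rxra, the retinoid X receptor, was at 24.8, 24.3 and 25.7 CPM at 1MO and at 11.5, 15.4 and 15.6 CPM at 3MO, a log2 fold change of -0.81 with an adjusted p of 0.694 in edgeR.

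Stress-inducible heat shock genes depended on 1 library. Hspa1a was at 5.58, 2.27 and 0 CPM at 1MO and at 182, 0 and 3.16 CPM at 3MO, and Hspa1b at 10.4, 12.4 and 0.888 CPM against 284, 6.03 and 3.87 CPM. In both genes 3MO replicate 1 alone was high, and without it their log2 fold changes were -0.76 and -0.68. The immediate early genes, which cells switch on within minutes of a stimulus, had a median of 0.20 over 16 genes with all libraries and -0.33 without 3MO replicate 1.

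**Figure D5:**
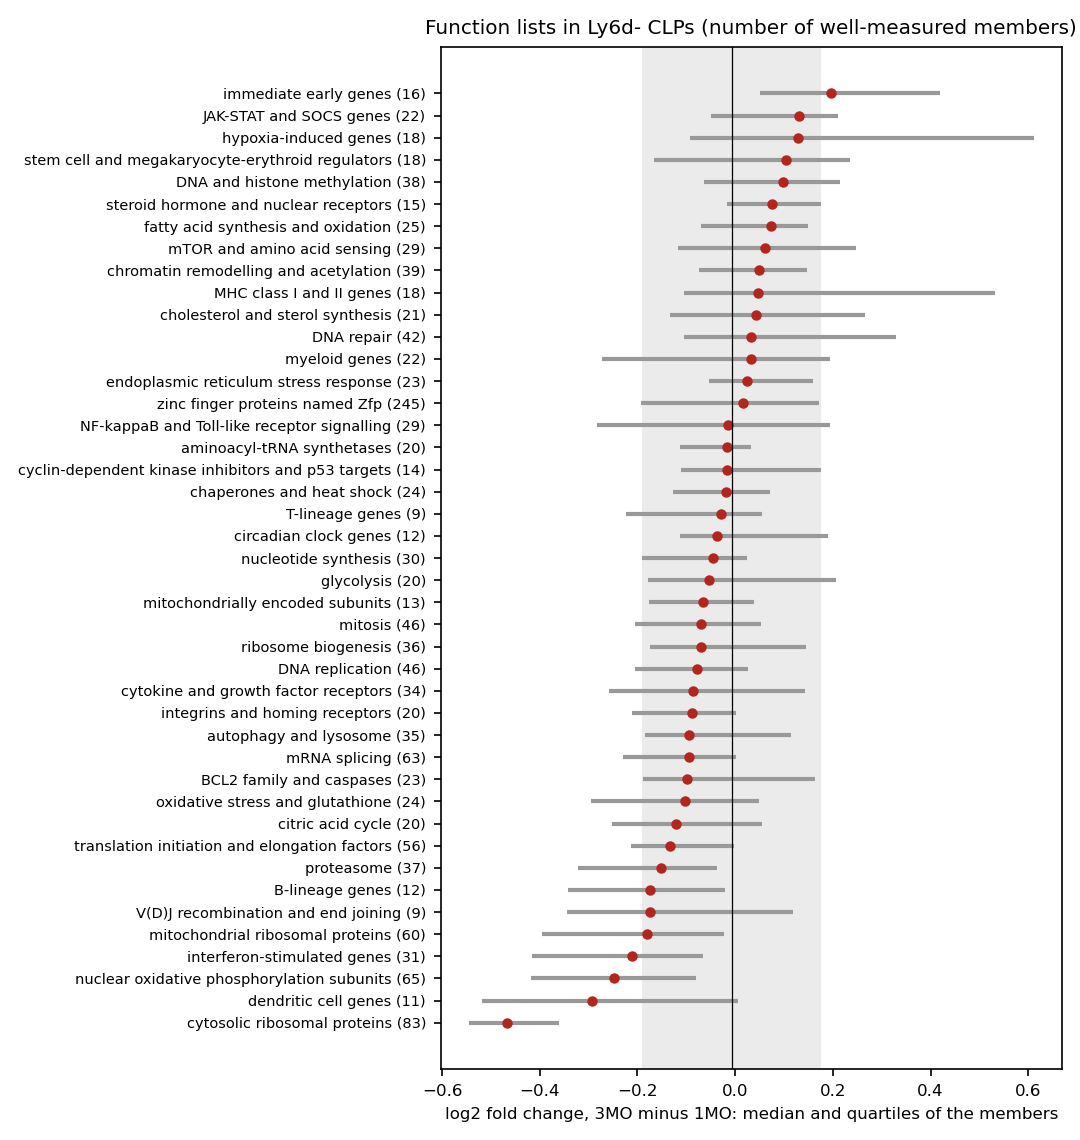
Median log2 fold change (3MO minus 1MO) of the well-measured members of the function lists shown, each with at least 9 of them (red points), with a line from the lower to the upper quartile and the number of members in brackets. The grey band is the quartile range of all well-measured genes, from -0.19 to 0.17 with a median of -0.01, and the cytosolic ribosomal proteins at -0.47, the dendritic cell genes at -0.29, the nuclear oxidative phosphorylation subunits at -0.25 and the interferon-stimulated genes at -0.21 lie to its left.

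With 1 library left out, the medians of the dendritic cell genes, the oxidative phosphorylation subunits and the interferon-stimulated genes came as near to 0 as -0.16, -0.08 and -0.15, within the quartile range of all well-measured genes. Most other function lists lay near 0. Median log2 fold changes were -0.05 for glycolysis, 0.04 for cholesterol and sterol synthesis, 0.07 for fatty acid synthesis and oxidation, -0.09 for autophagy and lysosome, and -0.10 for oxidative stress and glutathione. They were -0.09 for cytokine and growth factor receptors, -0.02 for chaperones, -0.02 for cyclin-dependent kinase inhibitors and p53 targets, -0.04 for circadian clock genes and 0.10 for stem cell and megakaryocyte-erythroid regulators. Of the lists with few well-measured members, some were farther out, with 0.31 for 4 HoxA and HoxB genes, 0.45 for 3 imprinted growth genes and -0.37 for the 1 replication-dependent histone gene that was well measured. Of the marker sums for other cells, erythroid markers were at 456 to 798 CPM at 1MO and 497 to 772 CPM at 3MO, megakaryocyte markers at 22.8 to 57.8 and 25.1 to 42.1 CPM and mature T cell markers at 39.6 to 45.1 and 38.3 to 52.8 CPM. All of these overlapped between the ages.

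The change in Ly6d- CLPs was set beside that in Flk2+ MPPs to see where the age step differed between the progenitors. The test of the difference, the interaction of age and cell type in the same fit, called 0 genes in edgeR, 0 in limma-voom and 6 in DESeq2, and 429 genes (3.21%) had an unadjusted p under 0.05 in edgeR. The genes called in Ly6d- CLPs had the same sign in Flk2+ MPPs, from -7.84 for Igf2bp3 to 5.30 for Pgr. Of these genes Col1a2 had the smallest unadjusted interaction p (8.84e-05, adjusted p = 0.591 in edgeR), with log2 fold changes of -7.52 (Ly6d- CLPs) and -1.55 (Flk2+ MPPs). In Flk2+ MPPs Col1a2 was at 14.9, 26.1 and 5.66 CPM at 1MO and at 5.92, 5.47 and 4.39 CPM at 3MO. Igf2bp3, with the larger fall in Flk2+ MPPs (-7.84 beside -4.52), had an unadjusted interaction p of 0.00254 in edgeR. Its levels there were 29.7, 18.4 and 30.7 CPM at 1MO and 0, 0.288 and 0 CPM at 3MO. Adam22 had a log2 fold change of 0.87 in Flk2+ MPPs, where it was at 18.1, 16.6 and 29.0 CPM at 1MO and at 44.5, 38.9 and 33.5 CPM at 3MO, and its interaction had an unadjusted p of 0.0031. Mapkbp1 had a log2 fold change of 0.08 in Flk2+ MPPs and an unadjusted interaction p of 0.00129. Igf2bp3, Adam22 and Mapkbp1 had an adjusted interaction p of 1.00 in edgeR. Ak4 had a log2 fold change of 1.31 in Flk2+ MPPs beside 2.12 in Ly6d- CLPs.

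Ribosomal proteins had a median of -0.21 in Flk2+ MPPs beside -0.47 in Ly6d- CLPs, the oxidative phosphorylation subunits -0.17 beside -0.25, interferon-stimulated genes -0.26 beside -0.21 and GIMAP genes -0.54 beside -0.47. The medians of the B-lineage, dendritic cell and T-lineage lists were 0.01, 0.17 and 0.17 in Flk2+ MPPs beside -0.17, -0.29 and -0.03 in Ly6d- CLPs. These list differences were not tested.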

How the data were processed

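The authors used an nf-core workflow with STAR alignment and Salmon quantification, after trimming and depletion of ribosomal reads, and deposited 1 table of estimated counts per gene for the 12 libraries, scaled for transcript length but not for depth. The submitters' processing notes name the build mm10, and the annotation release and the read mode of these libraries are not given in the sources used here. The deposited estimated counts were rounded to whole numbers, and 0 columns were left unmatched to samples. Genes passing filterByExpr were fitted in edgeR 4.0.16 (R 4.3.3) with TMM normalization and the quasi-likelihood test, in 1 model of 4 groups over all 12 libraries, with Benjamini-Hochberg adjustment over all genes tested. limma 3.58.1 (voom) and DESeq2 1.42.0 served as alternatives, and the edgeR steps were tested on simulated data. Alternatives changed 1 choice at a time. Gene coordinates were taken from GENCODE M21 (GRCm38) through the Ensembl identifiers. A list's median is over its well-measured members. The marker and function lists (51 of functions and 10 of markers) were written from general knowledge, and the members and lists were chosen with earlier results of these data known. Named genes are all called genes, the 10 higher and 10 lower well-measured genes with the smallest p and separated ages, up to 10 well-measured genes per direction called by DESeq2 alone, defining markers, and for the lists described, anchor genes and up to 3 well-measured members with the smallest p, of which not all are printed, and some results are not reported here.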

Additional observations from a re-analysis of the deposited data

Results flagged for a closer look

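The age step went in opposite directions in Ly6d- CLPs and Flk2+ MPPs for 3 of the genes named above, with the 3MO libraries of each cell type entirely on one side of its 1MO libraries. The difference was tested as the interaction of age and cell type in edgeR, and none of the 3 passed the adjustment. Mycn, a transcription factor of the MYC family, was at 75.9, 85.3 and 110.8 CPM at 1MO and at 38.5, 42.9 and 33.5 CPM at 3MO in Flk2+ MPPs, against higher 3MO values in Ly6d- CLPs. The difference of its log2 fold changes was 1.80 (SE 0.29, adjusted p = 0.237 in edgeR). Ebf1 was at 0.402, 0.878 and 0.181 CPM at 1MO and at 2.85, 1.94 and 0.921 CPM at 3MO in Flk2+ MPPs, levels of few counts, against lower 3MO values in Ly6d- CLPs, with a difference of -3.22 (SE 0.66, adjusted p = 0.825 in edgeR). Socs2 was at 15.3, 11.7 and 17.2 CPM at 1MO and at 6.24, 7.55 and 2.91 CPM at 3MO in Flk2+ MPPs, and the difference was 2.11 (SE 0.46, adjusted p = 0.918 in edgeR). The causes of these differences were not tested.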

How the results depend on the processing

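The count of called genes in Ly6d- CLPs was 10 with DESeq2's size factors, with every library thinned to the smallest total and among well-measured genes alone, and 7 in limma-voom. It was 46 without a filter on low counts and 57 in DESeq2, which both included the 10, and 4 with at least 10 counts in every library and in a fit of only the 6 Ly6d- CLP libraries. Leaving out 1 library gave 6 to 10, with 6 without 1MO CLP replicate 1 and without 3MO CLP replicate 2. In 2 alternatives chosen after seeing the data, the count was 4 (3 of them among the 10) without both replicate 1 Ly6d- CLP libraries and 9 with the trend on transcript length removed. The interaction count of 0 became 6 without a filter and in DESeq2, and 0 to 1 with 1 library left out, the 1 arising without 3MO CLP replicate 3. With the replicate number as a block, 11 genes were called and 10 were shared with the fit without the block. The main fit did not treat the numbers as pairs. Same-numbered Ly6d- CLP deviations correlated at 0.25, 0.131 and 0.083 between the ages, and 4 of 6 libraries correlated best with their own number. These values are no reason against pairing. The deposited column names order the libraries by replicate number, across both ages and cell types. The paper describes these profiles as coming from independent experiments. Whether libraries of one number shared an experiment is not given in the labels and was not tested. Igf2bp3 and Pgr were called under every alternative that tested them, that is, all but the filter of 10 counts per library. In limma-voom the adjusted p was 0.736 for Col1a1, 0.508 for Col1a2 and 0.0548 for Adam22. In the Ly6d- CLP fit it was 0.223 for Mapkbp1, 0.143 for Tifab, 0.11 for Rag1, 0.0752 for Ak4 and 0.0666 for Adam22 and Hmga2. Mapkbp1 and Rag1 were at 0.0584 each with at least 10 counts in every library and at 0.105 and 0.051 with the length trend removed. Without both replicate 1 libraries only Igf2bp3, Pgr and Ak4 of the 10 were called. Log2 fold changes changed sign with a library left out for Hspa1a (-0.76 to 5.68), Hspa1b (-0.68 to 4.19, and -0.45 without both replicate 1 libraries), Nfkbia (-0.12 to 0.59), Mpo (-0.27 to 0.0050), Ptprc (-0.21 to 0.052), Flt3 (-0.0041 to 0.090), Traf6 (-0.10 to 0.025) and Mki67 (-0.052 to 0.058, -0.0051 without a filter and -0.048 with the length trend removed). No called gene changed sign. The cause of these shifts was not tested.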
